A study of Mus musculus with 141 samples.

Results

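The response of mRNA levels to chronic oral nicotine was compared between the interpeduncular nucleus (IPN) and the nucleus accumbens (NAc). The comparison used the mRNA libraries of both regions from nicotine-drinking and control mice, 20 of the 141 libraries of the series, and every gene listed in both expression tables. The study sequenced small RNAs and mRNAs from the habenulo-interpeduncular circuit of mice during nicotine treatment and withdrawal. The NAc libraries were not part of that circuit and give another brain region under the same treatment.

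The 4 groups were IPN chronic nicotine (IPN Nic), IPN tartaric acid (IPN TA), NAc chronic nicotine (NAc Nic) and NAc tartaric acid (NAc TA), with 5 libraries each. All animals were male C57BL/6J mice. From 6 weeks of age and for 6 weeks, Nic mice drank nicotine tartrate at 200 µg/ml of nicotine base and TA mice drank an equivalent tartaric acid solution. All bottles, control bottles included, held saccharine at 3 g/L. Each library pooled tissue punches from 4 mice, so a replicate is a pool and not an animal, and no label says whether an IPN pool and a NAc pool of the same number came from the same mice.

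The IPN is a midline midbrain nucleus, rich in GABA neurons, that receives the medial habenula through the fasciculus retroflexus and is known for its dense nicotinic acetylcholine receptors and its role in nicotine aversion and withdrawal. The NAc is the ventral part of the striatum. Its projection neurons carry dopamine D1 or D2 receptors and take part in reward learning. Nicotinic receptors are pentameric cation channels that open on binding acetylcholine or nicotine, and long exposure to nicotine is known to change their number and function.

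The libraries held between 32803074 and 55037430 read pairs, of which 87.3% to 95.7% were mapped. Region identity followed the marker genes. The sum of 8 markers of striatal projection neurons was between 111 and 210 TPM (transcript abundance scaled to the same total in each library) in the 10 IPN libraries and between 1978 and 4367 TPM in the 10 NAc libraries. Of 9 IPN markers, Gata3, Otp, Pax7, Chrnb4 and Chrna5 averaged under 0.1 TPM in the NAc, but the sum of all 9 overlapped between regions, at 1014 to 3560 TPM in the IPN and 641 to 1646 TPM in the NAc. Of 3 markers of serotonin neurons, which lie beside the IPN, all were under 0.1 TPM in the NAc, and their sum reached 107 TPM in IPN Nic libraries and 43.1 TPM in IPN TA libraries.

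The libraries also differed in composition, in opposite directions in the IPN and the NAc. Read pairs that mapped to several places made up 10.2% ± 2.15 of the input in IPN Nic and 15.3% ± 3.06 in IPN TA (SD, n = 5 each), and the ranges, 7.77% to 13.0% and 12.3% to 19.1%, overlapped slightly. In the NAc the same share was 16.5% ± 1.85 in Nic and 11.5% ± 2.14 in TA. By exact permutation of treatment labels within each region, the difference between regions was -10.1 percentage points (two-sided p = 0.00022, adjusted p = 0.0034 over 18 tests of library measures). The share of TPM from genes whose longest transcript exceeds 4 kb was 14.1% ± 3.23 in IPN Nic against 9.42% ± 2.12 in IPN TA, and 8.74% ± 1.81 in NAc Nic against 14.1% ± 3.35 in NAc TA. This difference between regions was 10.1 percentage points (exact permutation p = 0.00038, adjusted p = 0.0034). Nicotine libraries of the IPN thus held relatively more long-gene signal than their controls, and nicotine libraries of the NAc relatively less. The same held in reverse for transcripts of the mitochondrial genome, at 7.01% ± 2.13 of TPM in IPN Nic, 9.44% ± 1.99 in IPN TA, 9.97% ± 1.53 in NAc Nic and 6.83% ± 1.08 in NAc TA (exact permutation p of the difference between regions = 0.0018, adjusted p = 0.00805).

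**Figure D1:**
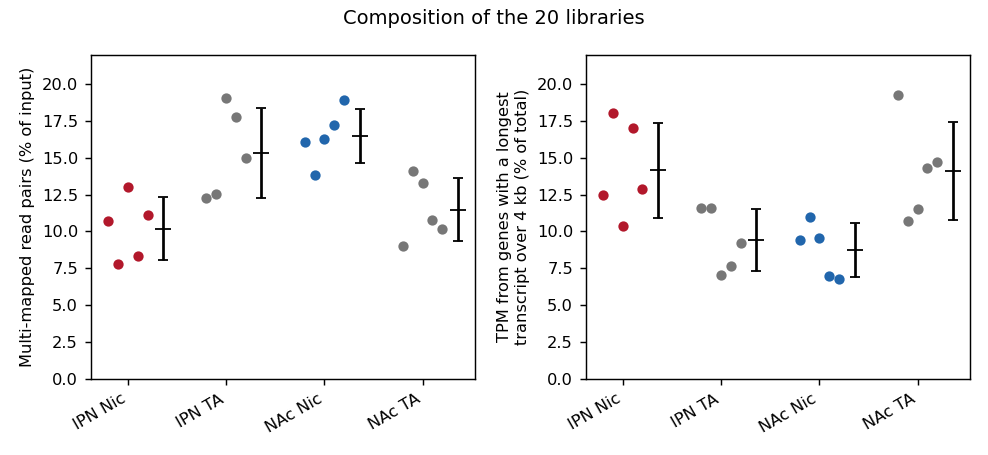
Composition of the 20 libraries by group. Points are libraries (4 mice pooled each), bars are means ± SD (n = 5). Left, multi-mapped read pairs in % of input. Right, % of TPM from genes with a longest transcript over 4 kb. The mean multi-mapped share is lower in IPN Nic (range 7.77% to 13.0%) than in IPN TA and higher in NAc Nic (13.8% to 18.9%) than in NAc TA, with slightly overlapping groups, and the long-gene share moves the other way.

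The question of the comparison was which genes responded differently to nicotine in the IPN and in the NAc. For each gene, the difference between regions was taken as the IPN response (Nic minus TA, on log2(TPM + 1)) minus the NAc response. A positive difference means that nicotine libraries stood relatively higher in the IPN than in the NAc. A gene was called when its adjusted p (limma, Benjamini-Hochberg over all 17064 genes tested) was under 0.05. Of 17064 genes, 6600 were called (38.7%), 6291 with a positive difference (36.9%) and 309 with a negative difference (1.81%). Of the 6291 genes with a positive call, 6275 had a positive log2 change in the IPN and a negative log2 change in the NAc. Of the 309 with a negative call, 294 had a negative change in the IPN and a positive change in the NAc. Over all 17064 genes, 10825 had the first of these patterns and 1961 the second. Genes were called for a large difference, which by itself favours opposite signs. Tested within each region, 5 of the 6291 genes were called in the IPN and 3551 in the NAc.

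Tested within each region, the responses were unequal in number of calls. The p-values measure the spread between pooled libraries, which may be partly technical. In the NAc, 3820 genes (22.4%) were called between Nic and TA, of which 3597 (21.1%) fell and 223 (1.31%) rose. This split changed with scaling: 3593 rose and 2658 fell with a common median, 2302 rose and 2139 fell after length and GC adjustment, 2317 rose and 3002 fell with quantile normalization, and 1704 rose and 2537 fell with RUV factors. In the IPN, 6 genes (0.0352%) were called, of which 5 (0.0293%) rose and 1 (0.00586%) fell, although 6021 genes had an unadjusted p under 0.05. The IPN count was set by single libraries: it was 2906 without IPN Nic replicate 3 and 1476 without IPN TA replicate 2, and 0 without IPN Nic replicate 2 or IPN TA replicate 3. The NAc count was 2303 without NAc TA replicate 1 and 2432 without NAc Nic replicate 5. Of all genes, 1 (Ndst4, described below) was called in both regions, in opposite directions, and 0 in both regions in the same direction by limma. Nic and TA libraries did not overlap at all for 6.91% of genes in the IPN and for 12.3% of genes in the NAc. Across all 17064 genes the IPN and NAc log2 responses had a Pearson r of -0.66, a description only, since every gene shares the same 20 libraries.

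**Figure D2:**
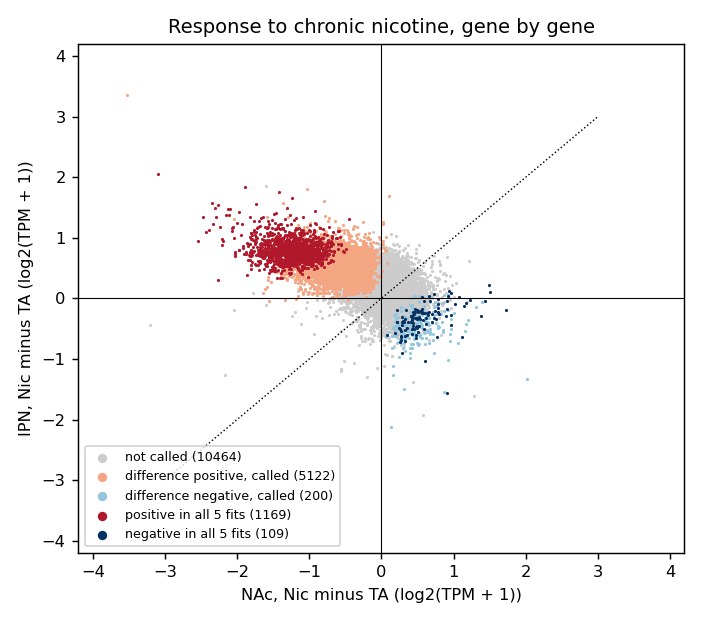
Each point is 1 of 17064 genes. The vertical axis is the IPN response and the horizontal axis the NAc response, both Nic minus TA on log2(TPM + 1), with the dotted line marking equal responses. Most of the 6291 genes called with a positive difference sit in the upper left, with higher nicotine values in the IPN and lower ones in the NAc. Dark points were called with the same sign in all 5 fits (1169 positive, 109 negative).

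The direction of many differences depended on scaling. The median difference over all genes was 0.49 with TPM as deposited, from a median IPN response of 0.33 and a median NAc response of -0.18. After each library was shifted to a common median within its region, the median was -0.33 and the calls were 2919 positive and 5703 negative. This shift changes the difference of every gene by the same amount. It can turn signs, but a list keeps its distance from the median of all genes. Quantile normalization within regions gave 3253 positive and 2629 negative calls. With RUV factors (axes of variation among libraries of 1 group, 2 for the IPN and 1 for the NAc) 1598 genes were called positive and 543 negative, and 1680 genes kept their call and sign. With the multi-mapped share as a covariate, limma called 0 genes for the difference, with 2315 at an unadjusted p under 0.05, and 208 genes in the NAc. Nicotine treatment and multi-mapped share moved together in both regions, so in this design they can be told apart only in part.

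The difference between regions followed transcript length. Among genes averaging at least 1 TPM, the median difference was -0.19 for the 1078 genes with a longest transcript under 1 kb, 0.14 at 1 to 2 kb, 0.66 at 2 to 4 kb, 1.06 at 4 to 6 kb and 1.32 for the 1870 genes over 6 kb. Both regions took part: the median response of genes over 6 kb was 0.60 in the IPN and -0.71 in the NAc. Positive calls covered 75.5% of genes over 6 kb and 5.75% of genes under 1 kb. After each library was adjusted for transcript length and GC share, the medians of the length classes lay between -0.13 and 0.09, and 2329 genes were called positive and 3341 negative. The flat medians follow from the adjustment itself, which removes each library's trend with length in the same genes.

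**Figure D3:**
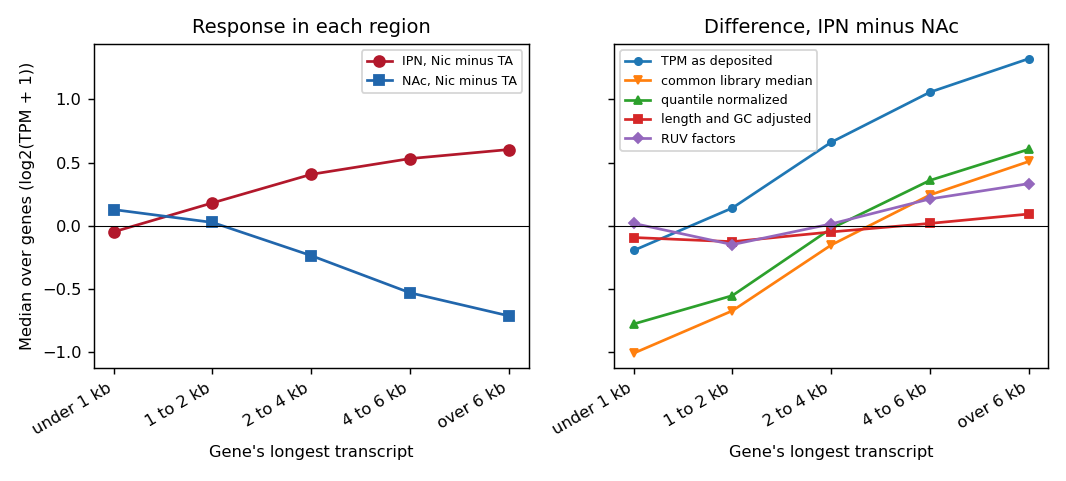
Median over genes with a mean of at least 1 TPM, by length of the gene's longest transcript, on log2(TPM + 1). Left, the response in each region. Right, the difference between regions under 5 ways of processing. With TPM as deposited the median difference climbs to 1.32 over 6 kb. After adjustment for length and GC share it stays between -0.13 and 0.09, which that adjustment brings about by its design.

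A smaller set of genes did not turn on these choices. In 5 fits (TPM as deposited, common median, quantile normalization, length and GC adjustment, RUV factors), 1169 genes (6.85%) were called positive every time and 109 genes (0.639%) negative every time. Genes of this set are described below as called in all 5 fits. None of them was called once the multi-mapped share entered as a covariate.

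The 12 genes named for the largest positive differences were Ppp1ccb, Irs2, Elfn2, Shank1, Lrrc8b, Slc8a1, Add2, Zxda, Epha4, Tnrc18, Ccdc85c and Adcy9, with differences between 3.41 and 3.92. All 12 fell in the NAc, none passed the test in the IPN alone, and all 12 were called in all 5 fits. Ppp1ccb and Zxda are annotated as pseudogenes, and their values are uncertain because reads may be shared with near-identical copies. Ppp1ccb is a near copy of the phosphatase gene Ppp1cc.

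Shank1 encodes a scaffold of the postsynaptic density that ties glutamate receptors to the actin skeleton (chromosome 7, 44310253 to 44360572, GRCm38). It was measured at 17.8, 47.9, 15.6, 36.2 and 18.9 TPM in IPN Nic libraries, against 9.34, 8.73, 3.89, 3.60 and 7.40 TPM in IPN TA libraries. In NAc Nic it was at 4.23, 7.17, 3.72, 1.65 and 1.68 TPM, against 28.5, 9.17, 12.1, 19.6 and 11.2 TPM in NAc TA. Nic and TA did not overlap in either region, and the order of the treatments was opposite. The difference between regions was 3.73 ± 0.51 (SE, 95% confidence interval 2.68 to 4.77, adjusted p = 0.00018), from 1.84 in the IPN and -1.89 in the NAc. It was 1.91 after length and GC adjustment.

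Epha4, a receptor tyrosine kinase for ephrins that steers axons and shapes spines, had the larger of its changes in the NAc. It stood at 21.96, 24.7, 27.2, 9.72 and 8.32 TPM in NAc Nic libraries, against 154, 45.8, 135, 106 and 69.6 TPM in NAc TA libraries. In the IPN it was at 15.8, 23.0, 14.1, 43.5 and 25.0 TPM in Nic, against 11.4, 14.3, 7.62, 7.21 and 11.1 TPM in TA. The NAc groups did not overlap, and the IPN groups overlapped at a single pair of libraries. The log2 change was -2.43 ± 0.35 in the NAc (adjusted p = 0.00051) and 1.09 ± 0.35 in the IPN (adjusted p = 0.077).

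Irs2, an adaptor of the insulin and IGF1 receptors, averaged 12.8 ± 5.80 TPM in IPN Nic and 3.78 ± 1.94 TPM in IPN TA, and 3.37 ± 2.20 TPM in NAc Nic and 19.8 ± 9.75 TPM in NAc TA (SD, n = 5 each). Slc8a1, the plasma membrane sodium-calcium exchanger, averaged 7.98 ± 4.52 TPM in IPN Nic and 2.08 ± 1.02 TPM in IPN TA, and 1.06 ± 0.68 TPM in NAc Nic and 8.01 ± 3.53 TPM in NAc TA. For these genes the groups did not overlap in either region. Add2, the beta subunit of the spectrin-binding protein adducin, Adcy9, an adenylyl cyclase, and Lrrc8b, a subunit of volume-regulated anion channels, differed by 3.56, 3.41 and 3.63.

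**Figure D4:**
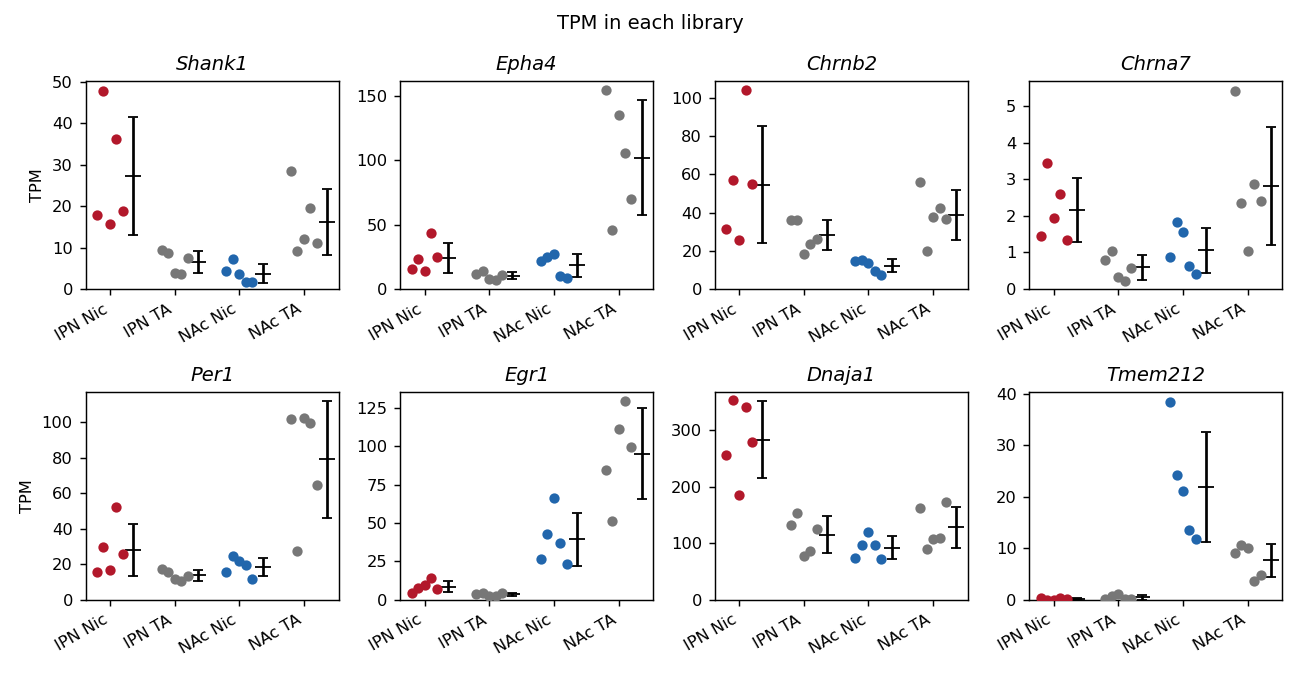
TPM of 8 genes in each of the 20 libraries (points), with group means ± SD (n = 5). The first 7 genes were called with a positive difference between regions and Tmem212 with a negative one. Shank1, Chrna7 and Dnaja1 separate Nic from TA in the IPN, and Tmem212 is under 2 TPM in all IPN libraries and higher in NAc Nic than in NAc TA.

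Of 9 nicotinic receptor subunit genes listed, 6 were tested, and 4 were called with a positive difference (list median 1.13, against 0.49 over all genes). The list median was 0.31 with a common median and 0.06 after length and GC adjustment, and 2 genes were called after that adjustment and 2 with RUV factors. The alpha4 and beta2 subunits form the main high-affinity nicotinic receptor of the brain. Chrnb2 (chromosome 3, 89746195 to 89764632) was at 31.6, 56.8, 25.9, 104 and 55.0 TPM in IPN Nic, against 36.02, 36.2, 18.5, 23.7 and 25.96 TPM in IPN TA. In the NAc it was at 14.7, 15.2, 13.7, 9.55 and 7.52 TPM in Nic, against 56.1, 19.9, 37.7, 42.6 and 36.8 TPM in TA. Every NAc Nic library was below every NAc TA library, and the IPN groups overlapped. Chrnb2 fell in the NAc by 1.56 ± 0.31 on the log2 scale (adjusted p = 0.0015), and its difference between regions was 2.37 ± 0.44 (adjusted p = 0.00045), called in all 5 fits.

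Chrna4 averaged 21.1 ± 7.87 TPM in IPN Nic and 12.4 ± 4.40 TPM in IPN TA, and 1.56 ± 0.25 TPM in NAc Nic and 4.51 ± 1.67 TPM in NAc TA. It fell in the NAc with no overlap of groups (-1.05, adjusted p = 0.0063), and its difference of 1.76 ± 0.37 was called (adjusted p = 0.0010), but not with RUV factors (0.89, adjusted p = 0.054). Chrna7, which forms homomeric receptors with high calcium permeability, was at 1.44, 3.44, 1.95, 2.59 and 1.34 TPM in IPN Nic, against 0.80, 1.03, 0.32, 0.21 and 0.58 TPM in IPN TA. It was at 0.87, 1.83, 1.56, 0.64 and 0.40 TPM in NAc Nic, against 5.43, 2.34, 1.05, 2.87 and 2.41 TPM in NAc TA. The IPN groups did not overlap and the NAc groups did, and the difference of 1.82 ± 0.35 was called in all 5 fits (adjusted p = 0.00061).

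The subunits that mark the habenulo-interpeduncular tract gave smaller differences, and their TPM in the NAc was near 0. Chrna5, which averaged under 0.1 TPM in the NAc, was not among the 6 tested. Chrna2 averaged 29.7 ± 12.7 TPM in IPN Nic and 19.5 ± 3.68 TPM in IPN TA and was under 0.2 TPM in every NAc library. Chrna3 averaged 2.43 and Chrnb4 2.04 TPM in IPN Nic, against 1.52 and 1.35 TPM in IPN TA. In the NAc libraries Chrna3 was at most 0.26 TPM and Chrnb4 at most 0.28 TPM. The differences of Chrna2, Chrna3 and Chrnb4 were 0.49 (95% confidence interval -0.18 to 1.15), 0.44 (0.08 to 0.81) and 0.38 (-0.03 to 0.80). With so little signal in the NAc, they rest on the IPN responses of 0.50, 0.45 and 0.34. The IPN responses of Chrnb2 and Chrna4 were 0.81 and 0.72, and their NAc changes enlarged the difference. Chrna3 alone among them passed (adjusted p = 0.047), and all 3 values turned negative, at -0.33, -0.37 and -0.43, once libraries were set to a common median. The median of all genes was then -0.33. Of 6 genes for nicotinic receptor chaperones and accessory proteins, Lynx1, a membrane-anchored inhibitor of nicotinic receptors (difference 1.52), and Tmem35a, the receptor chaperone NACHO (1.08), were called, and neither was with RUV factors. The share called, 2 of 6, was near the 36.9% called positive over all genes. The median of this list was 0.73, against 0.49 over all genes, and -0.08 with a common median, against -0.33.

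Genes of the excitatory synapse stood together. Of 36 receptors and scaffolds, 35 were called positive, against 36.9% of all genes, and none negative, with a median difference of 1.79. In the NAc 23 of the 36 fell, against 21.1% of all genes. Rescaling lowered the count of positive calls but turned no call round: 22 were positive with a common median and 14 after length and GC adjustment, with none negative in either, and 12 were called in all 5 fits. Besides Shank1, members of small p were the guanylate kinase-associated scaffolds Dlgap1 (2.18 ± 0.36) and Dlgap4 (2.30 ± 0.40). Dlgap1 averaged 47.8 TPM in IPN Nic and 26.02 TPM in IPN TA, and 20.1 TPM in NAc Nic and 53.2 TPM in NAc TA. The median longest transcript of the list was 6168.5 bases, against 3156 bases over all genes tested.

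In the presynaptic list, 18 of 20 genes were called positive and none negative, with a median of 1.58, against 36.9% positive over all genes. The positive calls were 12 with a common median (list median 0.76), 10 after length and GC adjustment (0.58) and 8 with RUV factors (0.56), and 7 genes were called in all 5 fits. Syn1, which tethers synaptic vesicles, was at 144, 276, 156, 263 and 165 TPM in IPN Nic, against 111, 104, 60.6, 69.2 and 93.2 TPM in IPN TA. In the NAc it was at 74.7, 99.3, 79.4, 59.4 and 47.6 TPM in Nic, against 210, 101, 142, 186 and 161 TPM in TA. Nic and TA did not overlap in either region, and the difference was 2.31 ± 0.35 (adjusted p = 0.00029). Bsn, the active-zone scaffold Bassoon, differed by 2.26, and by 0.51 after length and GC adjustment.

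Ion channel genes were called almost throughout. Of 33 potassium channel genes, 32 were called positive (median 1.51), and 24 fell in the NAc. Of 27 calcium, sodium and HCN channel genes, 24 were called positive (median 1.75), and 17 fell in the NAc. Over all genes 36.9% were called positive and 21.1% fell in the NAc. The median longest transcript was 5407 bases for the potassium list and 7926 bases for the other, against 3156 bases over all genes tested. No member of either list was called negative under a common median, quantile normalization, length and GC adjustment or RUV factors, and 10 of each list were called in all 5 fits. Kcna1, a delayed rectifier subunit of axons, averaged 38.7 TPM in IPN Nic and 19.9 TPM in IPN TA, and 15.1 TPM in NAc Nic and 42.4 TPM in NAc TA (difference 2.35 ± 0.38). Cacna1a, the pore of P/Q-type calcium channels, averaged 52.1 ± 24.3 TPM in IPN Nic and 20.4 ± 6.77 TPM in IPN TA, and 13.2 ± 6.70 TPM in NAc Nic and 54.0 ± 18.9 TPM in NAc TA. Its groups did not overlap in either region, and its difference was 3.25 ± 0.49. Kcnq5 (2.52), the leak channel gene Kcnk9 (2.89), the T-type channel gene Cacna1i (2.76) and the sodium channel beta subunit gene Scn2b (2.39) complete the members named by smallest p.

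Axon guidance genes and chromatin regulators, which are long genes too, showed the same sign. Of 35 guidance ligands and receptors, 29 were called positive, against 36.9% of all genes, and none negative (median 1.60), although 2 were negative with a common median and 2 after length and GC adjustment. Sema4d, a membrane semaphorin, differed by 2.81 ± 0.42 with no overlap in either region, and the netrin receptor gene Unc5a by 2.43 ± 0.39. Of 32 histone methyltransferases and chromatin remodellers, 30 were called positive (median 1.66), against 36.9% of all genes, and 3 were negative after length and GC adjustment. Chd4, the ATPase of the NuRD complex, differed by 2.49, Setd1b, an H3K4 methyltransferase, by 2.54 and Arid1b, a BAF subunit, by 2.51. The median longest transcript was 6723 bases for the guidance list and 8859.5 bases for the chromatin list.

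Of 19 immediate early genes tested, which neurons switch on within minutes of activity, 16 were called positive, against 36.9% of all genes, and none negative, with a median of 1.58 and a median longest transcript of 3189 bases. The median was 0.76 with a common median (6 positive and 1 negative call), 0.69 after length and GC adjustment (6 positive) and 1.48 with RUV factors (7 positive). In the NAc, 10 of the 19 fell, against 21.1% of all genes. Egr3, a zinc finger transcription factor, was at 10.7, 15.5, 12.9, 3.52 and 2.65 TPM in NAc Nic, against 65.8, 16.8, 37.0, 57.8 and 41.3 TPM in NAc TA, and under 1 TPM in every IPN library. Every NAc Nic library was below every NAc TA library, with NAc TA replicate 2 the closest.

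Egr1 was at 26.6, 43.0, 66.6, 37.0 and 23.3 TPM in NAc Nic, against 84.8, 51.2, 111, 129 and 99.8 TPM in NAc TA. In the IPN it was at 4.13, 7.92, 9.73, 14.1 and 6.70 TPM in Nic, against 3.78, 4.58, 2.37, 2.18 and 4.31 TPM in TA. Its NAc groups overlapped only through TA replicate 2, and the difference between regions was 2.34 ± 0.42 (adjusted p = 0.00041). Homer1, whose short isoform is induced by activity, differed by 2.51 and the salt-inducible kinase gene Sik1 by 2.25. All 4 genes were called in all 5 fits. Isoforms of Homer1 cannot be told apart in these gene-level values.

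Circadian clock genes gave 14 positive calls of 17 (median 1.22), and 9 fell in the NAc. Over all genes 36.9% were called positive and 21.1% fell in the NAc. Per1, a core repressor of the clock that also responds to glucocorticoids, was at 15.5, 24.6, 21.7, 19.6 and 11.8 TPM in NAc Nic, against 102, 27.5, 103, 99.4 and 64.7 TPM in NAc TA. In the IPN it averaged 28.0 ± 14.8 TPM in Nic and 13.7 ± 2.91 TPM in TA. The NAc groups did not overlap, and the difference was 2.80 ± 0.46 (adjusted p = 0.00034). The clock-controlled repressors Bhlhe41 (2.41) and Bhlhe40 (1.97) and the PAR bZIP factor gene Tef (2.16) moved with it, and all 4 were called in all 5 fits. The list held 8 positive and 1 negative call with a common median. Of 14 glucocorticoid-responsive genes, 6 were called positive (median 0.48, against 0.49 over all genes), among them Zbtb16 (1.53), and with a common median 3 were positive and 6 negative (median -0.33).

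Neurotransmitter genes that define each region gave the following values. Of 23 genes of striatal projection neuron signalling, 14 were called positive and none negative (median 1.16), against 36.9% positive and a median of 0.49 over all genes. In the NAc 12 of the 23 fell, against 21.1% of all genes. With a common median 10 were positive and 3 negative, and with RUV factors 3 were positive and 1 negative. Adcy5, the main adenylyl cyclase of the striatum, averaged 115 ± 30.8 TPM in NAc Nic and 356 ± 127 TPM in NAc TA, and 51.1 ± 19.1 TPM in IPN Nic and 29.8 ± 10.2 TPM in IPN TA. Drd2 averaged 22.7 TPM in NAc Nic and 54.2 TPM in NAc TA, with overlapping groups. Ptpn5, a striatum-enriched phosphatase gene, differed by 1.67 and Rasgrp2, a Rap activator gene, by 1.505. In punches, fewer cells of a type and less RNA per cell cannot be told apart. Of 13 IPN and midbrain genes tested, 5 were called positive (median 0.71), a share near the 36.9% of all genes, among them Amigo1 (1.72) and the nitric oxide synthase gene Nos1 (1.54). With a common median the list median was -0.10, against -0.33 over all genes.

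Of 19 GABA-A receptor and GABA synapse genes, 9 were called positive (median 1.002), against 36.9% positive and a median of 0.49 over all genes, with 5 positive and 2 negative with a common median and a median of -0.01 with RUV factors. Gad1, a GABA-synthesizing enzyme, was at 223, 444, 191, 456 and 316 TPM in IPN Nic, against 188, 232, 96.3, 144 and 175 TPM in IPN TA. In the NAc it was at 284, 339, 270, 133 and 112 TPM in Nic, against 886, 382, 561, 633 and 552 TPM in TA. The NAc groups did not overlap and the IPN groups did, and Gad1 was the member of this list called in all 5 fits (2.41 ± 0.44). Gabra2, the alpha2 receptor subunit, differed by 2.11, and not with RUV factors (adjusted p = 0.070).

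Dnaja1, an Hsp40 co-chaperone, was among the 6 genes called in the IPN. It was at 257, 354, 186, 341 and 279 TPM in IPN Nic, against 132, 153, 77.0, 85.4 and 126 TPM in IPN TA, with no overlap. In the NAc it was at 74.0, 96.9, 120, 97.1 and 71.7 TPM in Nic, against 162, 90.3, 107, 109 and 172 TPM in TA, and overlapped. It rose in the IPN by 1.31 ± 0.23 (adjusted p = 0.034), its NAc change was -0.46 (adjusted p = 0.17), and the difference of 1.76 was called in all 5 fits. The IPN call was lost at an adjusted p under 0.01 and in at least 5 other fits. Limma called 0 genes in the IPN with RUV factors, with the multi-mapped covariate and without IPN Nic replicate 2 or IPN TA replicate 3. In these, 1811, 1271, 3275 and 3378 genes had an unadjusted p under 0.05. Without IPN TA replicate 4, 0 genes were called as rising in the IPN and 1 as falling, with 3934 at an unadjusted p under 0.05. The heat shock and chaperone list as a whole was mixed: 10 of 21 were positive and 1 negative (median 0.68). Over all genes 36.9% were positive, with a median of 0.49. With a common median 2 were positive and 7 negative (median -0.13), against 2919 and 5703 of 17064 genes (median -0.33). Dnajb5 (1.42), Hsph1 (1.39) and Dnajb2 (1.54) were not called in all 5 fits.

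The other 5 genes called in the IPN were named after their values were seen. Ndst4, a heparan sulfate sulfotransferase gene, rose in the IPN by 1.497 ± 0.23 (adjusted p = 0.016). It also fell in the NAc by 1.31 on the log2 scale (adjusted p = 0.00086), and was the only gene of the 17064 tested that was called in both regions with TPM as deposited. Its difference, 2.81, was called in all 5 fits. Gpr139, an orphan receptor known for its expression in the habenula, rose by 0.73 in the IPN, and the predicted genes Gm7816 and A330074K22Rik rose by 1.06 and 0.91. The long non-coding gene 1010001B22Rik fell in the IPN by 0.91 on the log2 scale, and its difference was called negative in all 5 fits. All 6 IPN calls were lost with RUV factors, with the multi-mapped covariate and at an adjusted p under 0.01. Of the 6, 3 held with a common median and 1 held when genes needed a mean of at least 1 TPM.

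Negative calls were fewer than positive ones. The 12 named by size were Tmem212, Rarres2, Vtn, S100a11, Snhg9, Tmsb15l, Ccdc153, mt-Nd2, Alyref, Rps14, Cox7b and mt-Nd1, with differences between -1.67 and -1.14. Tmem212 and Ccdc153 are expressed in the ciliated ependymal cells of the ventricles. Tmem212 was at 38.4, 24.3, 21.1, 13.6 and 11.8 TPM in NAc Nic, against 9.14, 10.6, 10.0, 3.64 and 4.75 TPM in NAc TA, and at most 1.08 TPM in the IPN. Every NAc Nic library was above every NAc TA library, and Tmem212 rose in the NAc by 1.38 ± 0.29 (adjusted p = 0.0022). Ccdc153 rose there by 1.14 (adjusted p = 0.0024) and the chemokine gene Rarres2, encoding chemerin, by 0.97 (adjusted p = 0.0077). All 3 were called in all 5 fits for the difference.

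Of 13 choroid plexus and ependymal genes, 4 were called negative and 1 positive, and 3 rose in the NAc, against 1.81%, 36.9% and 1.31% of all genes. The sum of 4 markers (Ttr, Folr1, Kl, Foxj1) was between 13.7 and 30.0 TPM in NAc Nic and between 16.1 and 28.0 TPM in NAc TA. The ciliary master regulator gene Foxj1 was not called (0.90, adjusted p = 0.10). Vtn, a pericyte-enriched matrix gene, was at 14.9, 14.5, 11.9, 17.0 and 15.0 TPM in NAc Nic, against 8.83, 8.76, 6.51, 7.67 and 8.98 TPM in NAc TA, without overlap, and was called negative in all 5 fits (-1.41 ± 0.34). Of 18 endothelial and mural genes, 3 were positive and 1, Vtn, negative (median 0.52). Over all genes 36.9% were positive, with a median of 0.49. With a common median the list median was -0.30, against -0.33 over all genes. Flt1, a VEGF receptor gene, differed by 1.40.

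With TPM as deposited, mitochondrial and ribosomal genes held the lower end of the scale. All 13 protein-coding transcripts of the mitochondrial genome had a negative difference, of which 8 were called (median -1.09), and 4 rose in the NAc. Over all genes 1.81% were called negative and 1.31% rose in the NAc. The sign of the list median was negative under all 5 fits, although none of the 13 was called with RUV factors. mt-Nd2 was at 4883, 4694, 6962, 4842 and 3795 TPM in NAc Nic, against 2116, 3340, 3412, 2909 and 2669 TPM in NAc TA, without overlap, and mt-Nd1 differed by -1.14. Among 78 cytosolic ribosomal protein genes, 7 were called negative (median -0.47), Rpl27 at -1.23 and Rps14 at -1.20. With a common median 51 of the 78 were negative, against 5703 of 17064 genes. With RUV factors the median of this list was 0.06, against 0.03 over all genes. Ribosomal protein genes have close pseudogene copies, which makes their values less certain.

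With TPM as deposited, nuclear genes of respiration lay below the median of all genes (0.49). For the counts below, 36.9% of all genes were called positive and 1.81% negative. With a common median 5703 of 17064 genes were negative. Among 36 complex I genes, 2 were positive and 2 negative (median -0.23), among 39 genes of complexes II to V none was positive and 5 were negative (median -0.21), and 19 and 22 were negative with a common median. With RUV factors the medians were 0.23 and 0.04, against 0.03 over all genes. After length and GC adjustment they were -0.27 and -0.39, against -0.12. Their median longest transcripts were 1025.5 and 1232 bases, against 3156 bases over all genes tested. The complex I genes Ndufc2 (-1.24) and Ndufa10 (-0.95) were called negative in all 5 fits. Ndufc2 rose in the NAc by 1.17 (adjusted p = 0.0028), with 272 ± 79.0 TPM in Nic and 121 ± 44.5 TPM in TA. Cox7b (-1.17) and the cytochrome c gene Cycs (-1.02) were called with TPM as deposited. Of 75 mitochondrial ribosomal protein genes, 4 were positive and 5 negative (median -0.12), with Mrpl19 (-0.89) negative in all 5 fits and Mrps18b at 0.90. With TPM as deposited, proteasome genes (3 positive of 31, median 0.17) and antioxidant genes (2 positive and 2 negative of 21, median -0.08) lay below the median of all genes. With a common median 10 of the 31 proteasome genes were negative, a share near that of all genes. With RUV factors the medians of the proteasome and antioxidant lists were 0.11 and 0.08, against 0.03 over all genes. After length and GC adjustment they were 0.05 and -0.26, against -0.12.

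Metabolic and cytoskeletal lists were divided. Of 16 glycolytic genes, 8 were positive and 1 negative (median 0.72), against 36.9% positive and a median of 0.49 over all genes. With a common median 4 were positive and 5 negative (median -0.09, against -0.33 over all genes). Hk1, the main hexokinase of the brain, averaged 193 TPM in IPN Nic and 96.2 TPM in IPN TA, and 55.9 TPM in NAc Nic and 142 TPM in NAc TA (difference 2.22), and the phosphofructokinase gene Pfkl differed by 2.00, both in all 5 fits. Of 26 profilins and actin regulators, 11 were positive and 2 negative (median 0.52), near the 36.9% and the median of 0.49 of all genes, and 9 and 9 with a common median (median -0.30). Among them were the WAVE complex genes Abi1 (2.35) and Abi2 (2.27). Pfn2, the neuronal profilin that the study followed further, was at 1222, 1549, 663, 1518 and 1159 TPM in IPN Nic, against 1006, 1132, 480, 605 and 783 TPM in IPN TA. In the NAc it was at 282, 279, 343, 195 and 219 TPM in Nic, against 502, 324, 415, 380 and 560 TPM in TA. Groups overlapped in both regions. The difference of 1.34 ± 0.36 was called (adjusted p = 0.0052), and was 0.37 with RUV factors (adjusted p = 0.35).

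Glial and other cell type lists differed in direction from each other. Relative to the median of all genes, the oligodendrocyte median lay higher in all 5 fits, by 0.11 to 0.40. The microglia median lay lower in all 5 fits, at -0.63 to -0.18 from that of all genes. Of 20 oligodendrocyte genes, 10 were positive and none negative (median 0.89), against 36.9% positive and a median of 0.49 over all genes. With a common median 4 were positive and 4 negative (median 0.08, against -0.33 over all genes). Over all 17064 genes 2919 were then positive and 5703 negative. The sum of 6 oligodendrocyte markers was between 6084 and 18256 TPM in IPN Nic and between 4813 and 9399 TPM in IPN TA, and between 2675 and 3086 TPM in NAc Nic and between 2426 and 4585 TPM in NAc TA. Mag, a myelin adhesion gene, differed by 1.87 in all 5 fits and the lineage factor gene Olig2 by 1.58. Astrocyte genes gave 5 positive calls of 14 (median 0.63), a share near the 36.9% of all genes, and 3 positive and 3 negative with a common median (median -0.18, against -0.33 over all genes). Microglia genes split, with 3 positive and 3 negative of 15, against 36.9% and 1.81% of all genes. The integrin gene Itgam (1.95) and the complement gene C1qb (-0.90) were called with opposite signs in all 5 fits.

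Of 8 dopamine and serotonin neuron genes, 1 was positive (median 0.67), against 36.9% positive and a median of 0.49 over all genes. With a common median none was positive and 2 were negative, against 2919 and 5703 of 17064 genes. None of the blood genes was called (0 of 5 globin and Alas2 genes by limma, median -0.52, and 3 negative with a common median). Of 12 cortical and septal projection neuron genes, 7 were positive (median 1.07), against 36.9% of all genes. The sum of 4 such markers was at most 52.4 TPM in NAc Nic and reached 257 TPM in NAc TA, with medians of 31.8 TPM in NAc Nic and 51.5 TPM in NAc TA and overlapping groups. The part of this and of the oligodendrocyte markers in the gene differences was not tested.

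**Figure D5:**
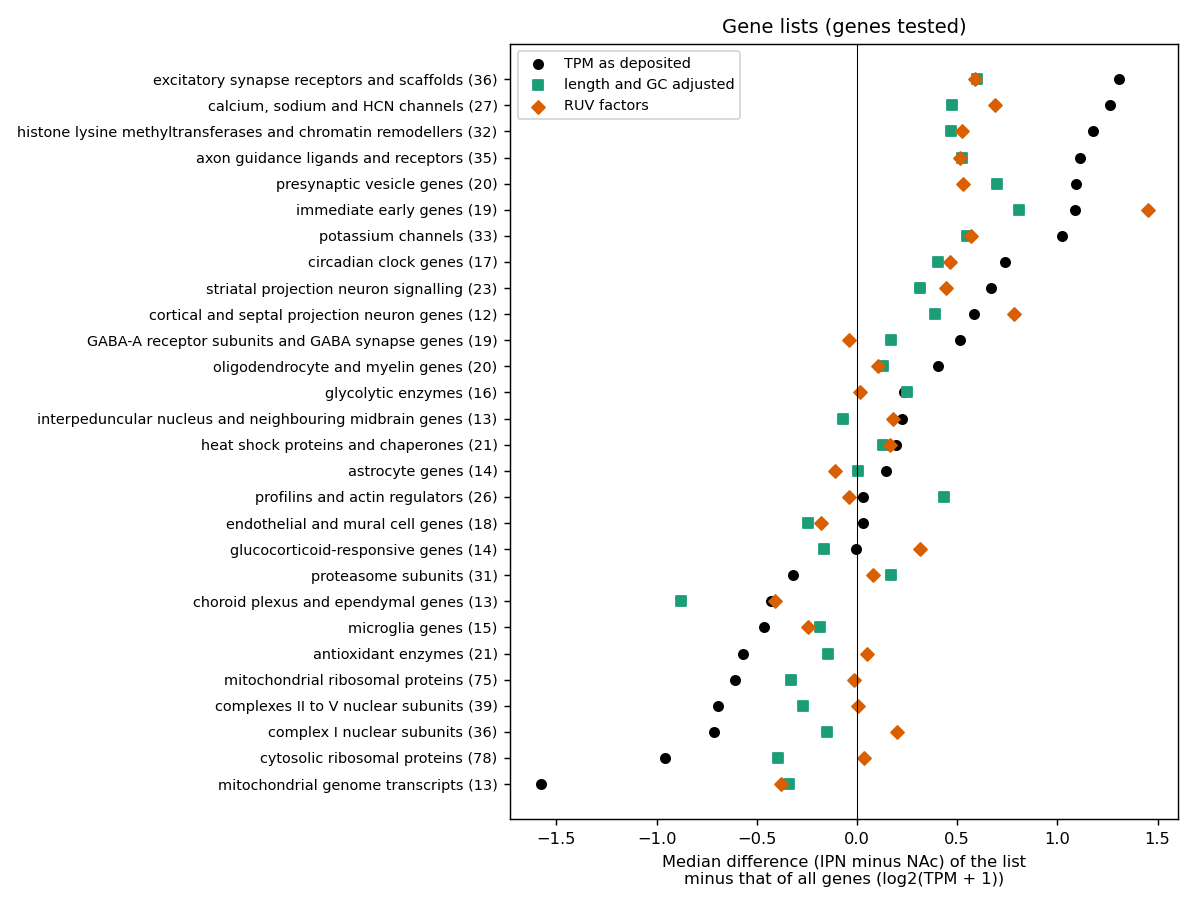
Median difference between regions of each list with at least 10 genes tested, minus the median of all 17064 genes, on log2(TPM + 1), under 3 ways of processing. Excitatory synapse, channel, guidance, presynaptic and immediate early gene lists lie to the right under all 3 ways shown. So do others, among them the chromatin, circadian clock, striatal signalling, and cortical and septal lists. Transcripts of the mitochondrial genome lie to the left under all 3, as do the choroid plexus and ependymal, microglia and mitochondrial ribosomal lists.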

How the data were processed

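Tissue punches of IPN and NAc were pooled from 4 mice per library, and RNA longer than small RNA was sequenced as stranded paired-end mRNA libraries. The authors aligned reads to mm10 with STAR 2.5.3a and estimated expression with RSEM 1.3.0, and TPM per gene as deposited was used here. Read counts of input, uniquely mapped and multi-mapped pairs per library are those deposited by the authors. The deposited columns of the authors' own comparisons hold fold changes and FDR values (DESeq2 1.14.1) and were not used. TPM keeps no read depth, so no count model was fitted.

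The IPN and NAc tables were joined by gene ID (43432 genes). A gene was tested when, in every group, 50% or more of its libraries held a value above 0 TPM (17064 genes). limma 3.58.1 in R 4.3.3 was fitted to log2(TPM + 1) with 4 group means and an intensity trend, and p-values were adjusted by Benjamini-Hochberg over all genes tested. A fold change on this scale understates the change of low genes. Library measures were compared by exact permutation (SciPy 1.17.1). The test was tried on simulated data with 200 changed genes and noise drawn independently for each gene and library. Variation that genes of a library share was not part of that trial. In the data, the largest shared axis of variation within groups held 47.6% of the variance. Coordinates are of GRCm38.

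Named genes were up to 12 per direction with the largest called difference, a mean of at least 5 TPM in a region and groups without overlap in a region, all nicotinic subunits tested, up to 4 members of each described list by smallest p, and Pfn2. Some genes that this rule names are not reported here. The members, lists and tests were chosen with earlier results of these data known. Alternatives were RUV factors, blocks, pseudocount, filters, normalizations, array weights, stricter thresholds and single libraries left out. Length and GC adjustment, the multi-mapped covariate and leaving out the libraries of lowest mapped share were chosen after seeing the data.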

Additional observations from a re-analysis of the deposited data

Results flagged for a closer look

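The responses of 82 named genes differed between regions by limma (adjusted p under 0.05), on the log2(TPM + 1) scale with a positive sign where nicotine libraries stood relatively higher in the IPN. The largest positive differences were those of Ppp1ccb (3.92), Irs2 (3.80), Elfn2 (3.80), Shank1 (3.73), Lrrc8b (3.63), Slc8a1 (3.58), Add2 (3.56), Zxda (3.53), Epha4 (3.51), Tnrc18 (3.49), Ccdc85c (3.49), Adcy9 (3.41) and Cacna1a (3.25). The next were those of Kcnk9 (2.89), Sema4d (2.81), Per1 (2.80), Cacna1i (2.76), Egr3 (2.57), Setd1b (2.54), Kcnq5 (2.52), Homer1 (2.51), Arid1b (2.51), Chd4 (2.49), Unc5a (2.43), Gad1 (2.41) and Bhlhe41 (2.41). Smaller ones were those of Scn2b (2.39), Chrnb2 (2.37), Abi1 (2.35), Kcna1 (2.35), Egr1 (2.34), Adcy5 (2.32), Syn1 (2.31), Dlgap4 (2.30), Abi2 (2.27), Drd2 (2.26), Bsn (2.26), Sik1 (2.25), Hk1 (2.22), Dlgap1 (2.18), Tef (2.16) and Gabra2 (2.11). The smallest positive ones were those of Pfkl (2.00), Bhlhe40 (1.97), Itgam (1.95), Mag (1.87), Chrna7 (1.82), Chrna4 (1.76), Dnaja1 (1.76), Amigo1 (1.72), Ptpn5 (1.67), Olig2 (1.58), Nos1 (1.54), Dnajb2 (1.54), Zbtb16 (1.53), Lynx1 (1.52), Rasgrp2 (1.505), Dnajb5 (1.42), Flt1 (1.40), Hsph1 (1.39), Pfn2 (1.34), Tmem35a (1.08), Mrps18b (0.90) and Chrna3 (0.44). Negative differences were those of Mrpl19 (-0.89), C1qb (-0.90), Ndufa10 (-0.95), Cycs (-1.02), mt-Nd1 (-1.14), Cox7b (-1.17), Rps14 (-1.20), Rpl27 (-1.23), Ndufc2 (-1.24), Alyref (-1.25), mt-Nd2 (-1.26), Ccdc153 (-1.27), Tmsb15l (-1.28), Snhg9 (-1.30), S100a11 (-1.38), Vtn (-1.41), Rarres2 (-1.41) and Tmem212 (-1.67).

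The response of library measures to nicotine also differed between regions, in percentage points. The differences were -10.1 for multi-mapped read pairs, 9.95 for uniquely mapped read pairs, -19.7 for TPM from genes under 1 kb, 10.1 for TPM from genes over 4 kb, -5.57 for TPM of the mitochondrial genome and -19.3 for TPM of the top 100 genes. The multi-mapped share entered as a covariate and transcript length as an adjustment in the alternatives, and the part of the other measures was not tested.

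Single libraries stood apart in 7 of 360 groups of values checked (1.94%), where chance gives about 1 in 20. They were 15.6 TPM of Lrrc8b and 17.6 TPM of Kcnk9 in IPN Nic replicate 2, 6.72 TPM of Sik1, 79.1 TPM of Dlgap4 and 114 TPM of Scn2b in NAc TA replicate 2, 4.75 TPM of Tmsb15l in NAc TA replicate 5 and 13.3 TPM of Mrpl19 in NAc Nic replicate 4.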

How the results depend on the processing

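The count of genes whose response differed between regions was 6600, and 2141 with RUV factors, 4032 at an adjusted p under 0.01, 3825 with a fold over 2 added, and 0 with the multi-mapped share as a covariate (2315 at an unadjusted p under 0.05). Leaving out single libraries gave 5382 to 7583. The NAc count was 3820, and 6251 with a common median, 1899 and 1412 at the stricter thresholds and 208 with the covariate, with 2303 to 4834 for single libraries left out. The IPN count was 6, and 0 with RUV factors (1811 unadjusted), with the covariate (1271 unadjusted) and at both stricter thresholds. It was 1 with a pseudocount of 0.1 or a mean of at least 1 TPM, 188 with quantile normalization, 162 with a common median, 602 with array weights, 210 after length and GC adjustment and 2995 without the libraries of lowest mapped share. Single libraries left out gave 0 to 2906 (31 without IPN Nic replicate 5, 25 without IPN TA replicate 1, 16 without NAc TA replicate 1, 13 without NAc Nic replicate 5, 1 or 3 without IPN Nic replicates 1 and 4, IPN TA replicates 4 and 5 and NAc TA replicate 4). Positive calls in the NAc were 2317 of 5319 with quantile normalization, 3593 with a common median, 2302 of 4441 after length and GC adjustment, 1704 of 4241 with RUV factors and 186 with the covariate. The causes were not tested.

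Signs of named genes turned with the covariate for Chrna2 (-0.16), Chrnb4 (-0.11), Lynx1 (-0.36), Tmem35a (-0.14), Ptpn5 (-0.17), Drd2 (-0.38), Amigo1 (-0.16), Nos1 (-0.25), and Pfn2 (-0.11). With it, the difference between regions of Rps14 was 0.0691, the difference between regions of Hsph1 -0.0364, the difference between regions of Abi1 -0.0014 and the difference between regions of Flt1 -0.00067. With a common median they turned for Chrna2 (-0.33), Chrna3 (-0.37) and Chrnb4 (-0.43), after length and GC adjustment for the same genes (-0.39, -0.42 and -0.52), and with RUV factors for Chrnb4 (-0.0547).

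Replicate numbers were not treated as pairs, since at most 2 of 5 same-numbered pairs correlated above 0.1 in any pair of groups, and 4, 1, 3 and 1 of 10 libraries correlated best with their own number. With the replicate block within each region the counts were 6877 for the difference, 1 in the IPN and 4037 in the NAc, and with the block across regions 7856, 6 and 3836. TPM keeps no depth, so precision rests on 5 pools per group.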
